A study of Mus musculus with 16 samples.

Results

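MicroRNAs (miRNAs), short RNAs that pair with messenger RNAs and lower their output, were compared between mouse macrophage-like cells grown with Th2 cytokines alone and the same cells grown in medium alone. The cells were RAW264.7, an established tumour-derived line used as a stand-in for macrophages. In the group called Th2 they were kept for 48 h with 10 ng per ml, per the labels, of interleukin-4 (IL-4) plus interleukin-13 (IL-13), and in the group called Media for the same time with no added cytokine. No array of either group received interleukin-33 (IL-33), which the other 8 of the 16 arrays of the study did (20 ng per ml for 4 h, after growth in either condition). Each group held 4 arrays, 1 from each of 4 independent experiments, so Media 1 and Th2 1 came from the same experiment. The 8 arrays were taken by their titles. Of 1247 mouse miRNAs on the array, 231 were tested, those that the scanner software detected on all 4 arrays of at least 1 of the 4 groups in the study.

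IL-4 and IL-13 share a receptor chain and act largely through the transcription factor STAT6, which drives the alternative activation of macrophages, marked by genes such as the mannose receptor Mrc1. Many miRNAs lie within protein-coding genes or in clusters that are read as 1 long transcript, from which hairpins are cut, and either arm of a hairpin can be kept as the mature miRNA. A miRNA finds its targets mainly through its seed, bases 2 to 8, so members of a family with 1 seed are expected to share many targets. The lysates were of whole cultures, in which a different share of responding cells and a different amount of RNA per cell cannot be told apart.

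The mature sequences below are those of miRNAs the results turn on, in RefSeq for GRCm38.p6, with the seed in capitals. RefSeq's table held 171 of the 231 tested miRNAs and 19 of the 22 that passed the test. The first set is the miRNA with the smallest p and members of the Clcn5 gene on chromosome X.
miR-511-3p: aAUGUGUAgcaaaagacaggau
miR-362-5p: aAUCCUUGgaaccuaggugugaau
miR-362-3p: aACACACCuguucaaggauuca
miR-500-3p: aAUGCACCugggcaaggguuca
miR-532-3p: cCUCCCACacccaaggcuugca
The second set shows relatives with 1 seed of which some rose and others did not pass. miR-99a-5p, miR-100-5p and miR-99b-5p share the seed ACCCGUA, let-7c-5p and let-7e-5p share GAGGUAG, miR-125b-5p and miR-125a-5p share CCCUGAG, and miR-146b-5p and miR-146a-5p share GAGAACU.
miR-99a-5p: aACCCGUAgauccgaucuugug
miR-100-5p: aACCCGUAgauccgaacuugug
miR-99b-5p: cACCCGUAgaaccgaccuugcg
let-7c-5p: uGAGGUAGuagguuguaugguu
let-7e-5p: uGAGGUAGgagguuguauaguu
miR-125b-5p: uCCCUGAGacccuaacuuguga
miR-125a-5p: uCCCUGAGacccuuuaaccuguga
miR-146b-5p: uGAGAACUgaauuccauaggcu
miR-146a-5p: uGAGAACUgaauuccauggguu
The third set holds the myeloid miR-223-3p, the Evl-hosted miR-342-3p, 2 members of the miR-378 family and both miRNAs that fell, whose seeds are alike but not identical.
miR-223-3p: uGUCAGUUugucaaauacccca
miR-342-3p: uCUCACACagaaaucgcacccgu
miR-378b: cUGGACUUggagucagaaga
miR-378d: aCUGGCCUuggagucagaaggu
miR-96-5p: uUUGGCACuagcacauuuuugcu
miR-182-5p: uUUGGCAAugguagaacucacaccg

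Values are relative signals, the summed probe intensity of a miRNA divided by the 75th percentile of its array over the 178 miRNAs detected on all 16 arrays, which gives that percentile a value of 1. The 8 arrays had 169 to 211 miRNAs above background, and the percentile lay at 427 to 618 intensity units. Media 1 and Th2 4 were hybridised on slide 2 and the other 6 arrays on slide 1. Media 3 stood apart, with a median correlation of 0.874 to the other Media arrays, while the 4 Th2 arrays had 0.984 to 0.987. On Media 3 the median of all tested miRNAs lay 0.35 log2 units below the Media mean, and that of the 32 miRNAs named like the Sfmbt2 intron cluster (miR-297, miR-466, miR-467 and miR-669) lay 1.25 above it. On Media 1 this family lay 1.19 below. Of 6 macrophage-typical miRNAs on the array, 4 were above background on every Media array and 5 on every Th2 array, with a summed level of 8.42 to 17.7 in Media and 18.1 to 26.3 in Th2. Most of that sum is miR-21a-5p (6.86 to 16.1 in Media and 16 to 24.7 in Th2). Of the 6, miR-21a-5p and miR-223-3p passed as higher, and both arms of miR-142a, a blood cell miRNA, had differences under 0 that did not pass (-0.16 and -0.13). Of 27 miRNAs typical of other cell types (red cells, epithelium, muscle, liver, nerve, fibroblasts, endothelium and stem cells), 0 were above background on every Media array and 1, miR-199a-3p, on every Th2 array. Their summed level was 0.411 to 0.660 in Media and 0.550 to 0.616 in Th2.

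**Figure D1:**
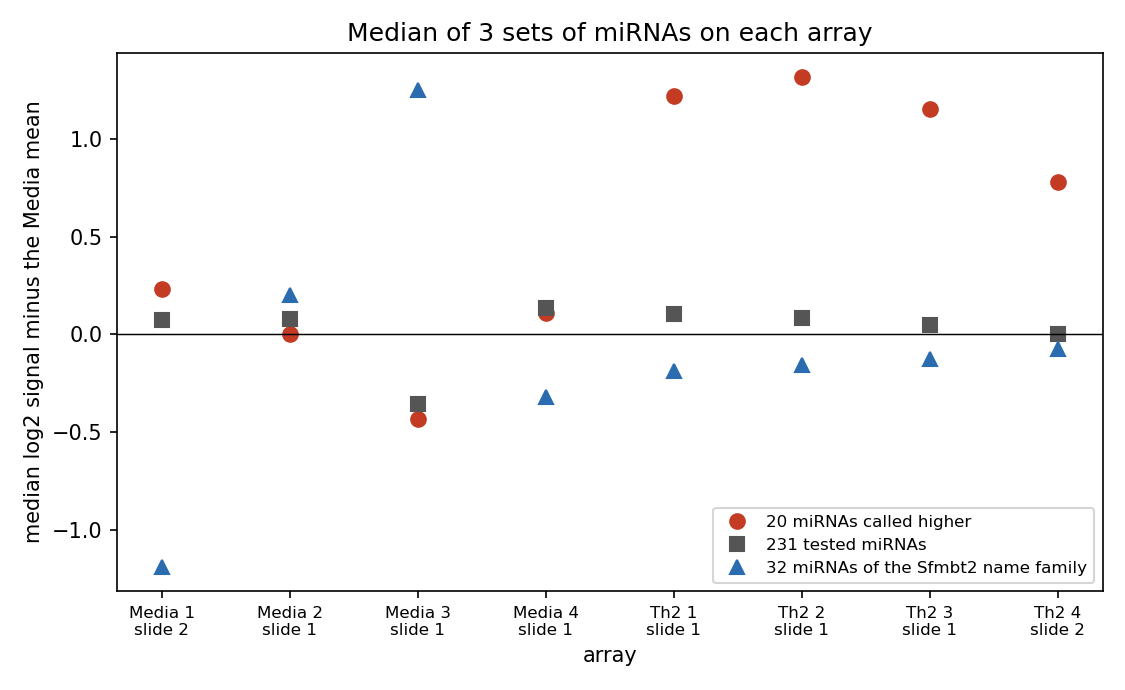
Each of the 8 arrays on the horizontal axis, with slide number, and on the vertical axis the median log2 relative signal minus the Media mean for 3 sets of miRNAs. Circles (20 miRNAs that rose) sit between 0.78 and 1.32 on the Th2 arrays, squares (all 231 tested) sit near 0 except on Media 3, and triangles (32 miRNAs of the Sfmbt2 name family) spread from -1.19 on Media 1 to 1.25 on Media 3.

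Growth with Th2 cytokines changed 22 of 231 tested miRNAs (9.52%) at a limma adjusted p under 0.05, 20 upwards (8.66%) and 2 downwards (0.866%). All 22 moved 1 way in 4 of 4 experiments, and for 20 the values of the 4 Th2 arrays did not overlap those of the 4 Media arrays. The 22 were picked from these same arrays, so their agreement between experiments is no separate support. Its share over all tested miRNAs was not counted. Over all tested miRNAs 26 (11.3%) had groups that did not overlap, of which 6 did not pass (miR-185-5p, miR-532-3p, let-7a-5p and miR-27a-3p higher, miR-466f-5p and miR-466c-5p lower). The median log2 difference of all tested miRNAs was 0.06 and 57.6% of the differences were positive. The median standard error (SE) was 0.18. There were 13 increases of more than 2-fold. In 19 of the 20 miRNAs that rose Media 3 was the lowest Media array, and in 11 Th2 4 was the lowest Th2 array. These shares were not counted over all tested miRNAs. On Media 3, however, all tested miRNAs were low, with a median 0.35 log2 units below the Media mean, beside 0.43 below for the 20. On Th2 4 the medians lay at 0 for all tested and 0.78 for the 20. The part of these arrays in the counts was measured by leaving them out. Without Media 3 there were 17 increases and 13 decreases, and without Th2 4 there were 22 and 2. Other scalings also moved the split between increases and decreases, to 19 and 21 with quantile normalization, 15 and 9 in the authors' deposited table, and 12 and 3 with the percentile taken over all miRNAs.

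**Figure D2:**
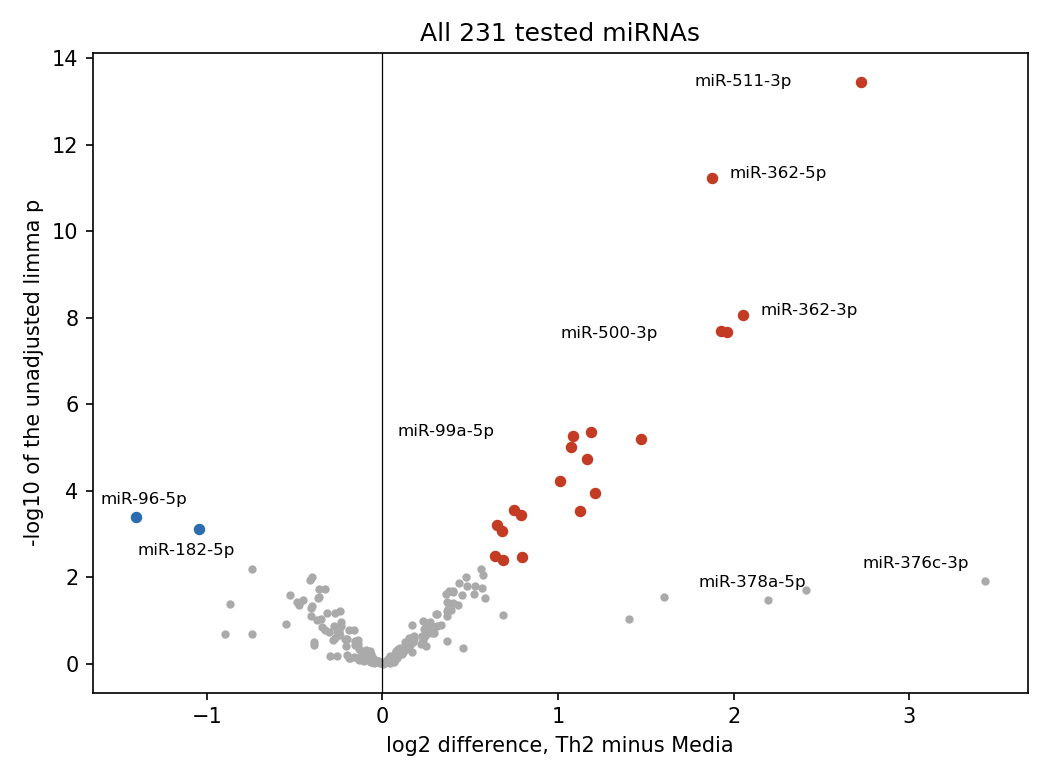
Each point is 1 of the 231 tested miRNAs, with the log2 difference of Th2 minus Media on the horizontal axis and -log10 of the unadjusted limma p on the vertical axis. Red points (20) rose and blue points (2) fell at an adjusted p under 0.05, and grey points did not pass. miR-511-3p and the Clcn5 miRNAs stand highest, and miR-376c-3p lies farthest right without passing.

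**Figure D3:**
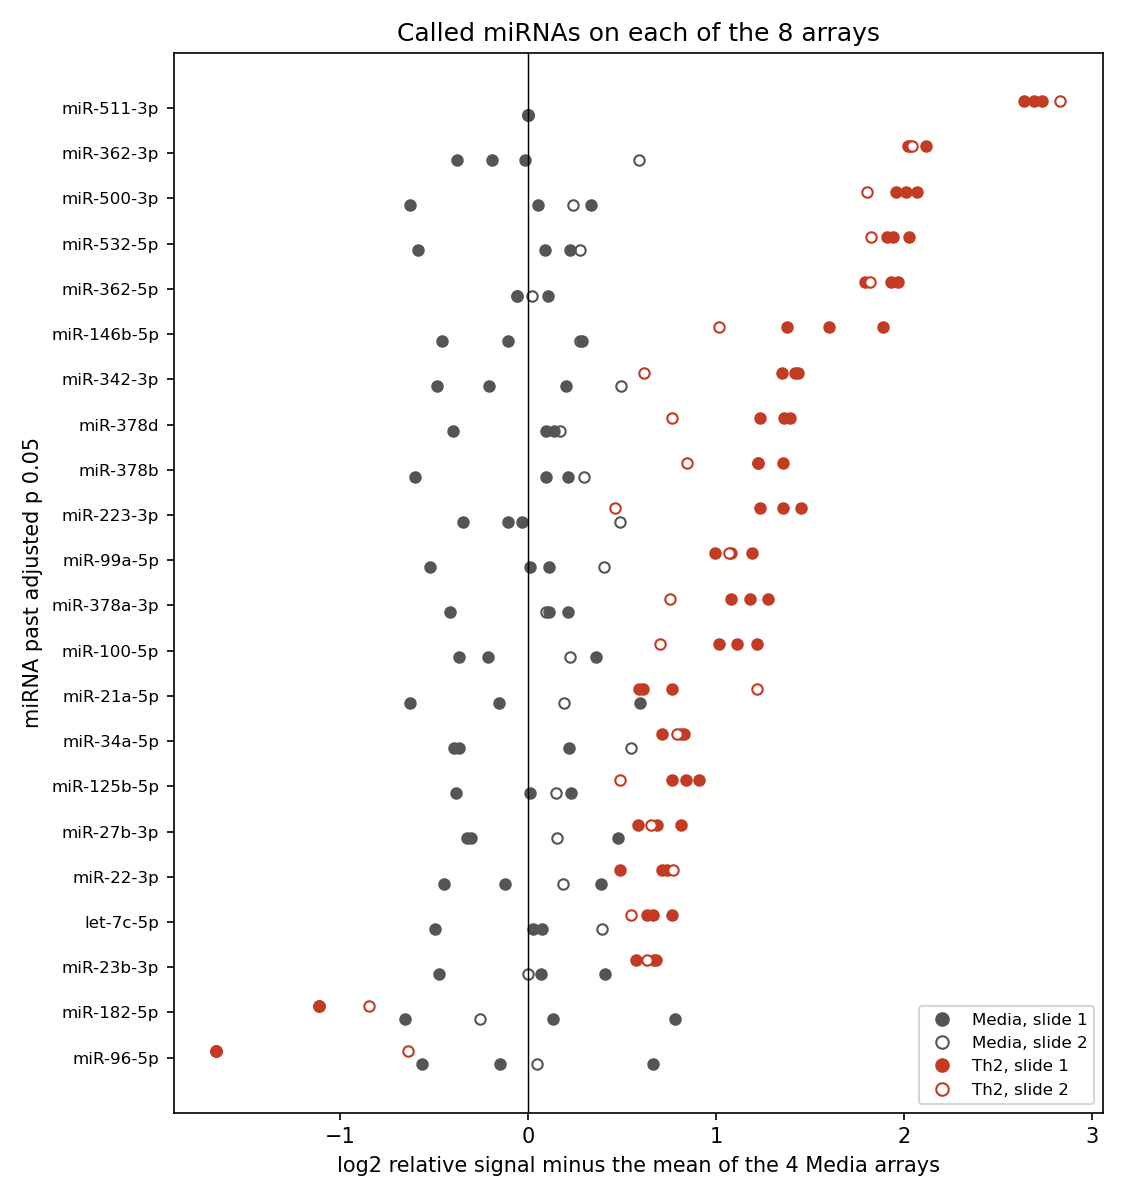
The 22 miRNAs that passed are listed on the vertical axis, and the horizontal axis gives the log2 relative signal of each array minus the mean of the 4 Media arrays, after flooring at 0.0353. Grey points are Media and red points Th2, filled for slide 1 and open for slide 2. For miR-223-3p and miR-21a-5p the groups overlap, and for the other 20 they do not.

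The alternative activation marker miR-511-3p had the smallest p. It is encoded within Mrc1, the mannose receptor gene (chr2:14261051-14261072 on the plus strand, GRCm38.p6, the strand of the gene). Its relative signal was 0.235, 0.228, 0.220 and 0.251 on Th2 arrays 1 to 4, and between -0.00850 and -0.00423 on the 4 Media arrays, which is at background. It was above background on all 4 Th2 arrays and on 0 of the Media arrays, and the Th2 values varied by little (0.234 ± 0.0133, SD, n = 4). Set against the dimmest signal that was above background on each Media array, the rise was at least 4.45-fold (log2 2.73 ± 0.10 SE over the floor, limma adjusted p = 8.18e-12). The Media values all sit at the floor, so the SE and p leave out their spread. Both of its probes differed in 1 direction, by 2.43 and 2.97 log2 units, and the other arm of the hairpin, miR-511-5p, was above background on none of the 8 arrays. Of the 15 miRNAs on the array in a list of alternative activation miRNAs, 9 were tested and 5 rose, with 0 lower and a median of 1.07, beside 8.66% higher and a median of 0.06 over all tested miRNAs. The list was drawn up with earlier results of these data known. The others that rose were miR-378a-3p, miR-223-3p, miR-342-3p and let-7c-5p.

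A second group, of miR-500, miR-501, miR-362, miR-188 and miR-532, lies in Clcn5, a chloride transporter gene on the minus strand of chromosome X. Its arms with a position here fall within chrX:7237695-7248440, and miR-532-5p has none. Of 6 tested members, 4 rose and 0 fell, with a median log2 difference of 1.90. Over all tested miRNAs 8.66% rose and the median was 0.06. miR-500-3p read 0.138, 0.148, 0.0758 and 0.122 on the Media arrays and 0.456, 0.492, 0.473 and 0.409 on the Th2 arrays. Every Th2 array lay far above every Media array, and the rise was 3.89-fold (1.96 ± 0.18, limma adjusted p = 9.76e-07). miR-532-5p went from 0.0762, 0.0735, 0.0419 and 0.0668 to 0.242, 0.256, 0.236 and 0.223, which is 3.80-fold (1.93 ± 0.18), or 3.74-fold with the Media arrays that were not above background set to the lowest signal that was.

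Both arms of miR-362, which have different seeds, rose. The 3p arm read 0.0689, 0.0401, 0.0321 and 0.0453 in Media and 0.186, 0.199, 0.188 and 0.189 in Th2 (2.05 ± 0.18, limma adjusted p = 6.60e-07), above background on 1 of 4 Media arrays and 4 of 4 Th2 arrays. With the dim Media arrays at the lowest signal above background the fold was 3.39. The 5p arm was above background on 0 Media arrays and all 4 Th2 arrays, with 0.144, 0.141, 0.127 and 0.130 in Th2. It was at least 2.58-fold higher (limma adjusted p = 6.84e-10). Its mean Media signal, 0.0250, lay under the floor of 0.0353, so the p leaves out part of the spread of the Media values. Of its 4 probes the longer pair differed by 1.99 and 2.02 log2 units, and the shorter pair, of 15 and 16 bases, was above background on no array.

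The remaining tested members of the Clcn5 group did not pass. miR-532-3p, the partner arm of miR-532-5p, was above background on 0 Media arrays and all 4 Th2 arrays, with values of 0.0633, 0.0497, 0.0534 and 0.0253 in Th2 and under 0 in every Media array. Its log2 difference from the floor was 0.48 ± 0.18 (limma adjusted p = 0.114), and with the brightest probe alone it passed (1.13). miR-532-3p also passed with log2 of signal plus floor (1.21, with or without the filter), with array weights (0.63) and without Th2 4 (0.65). miR-188-5p lies 6012 bases from miR-362-5p in the same gene and was bright enough to be above background on all 8 arrays. It read 0.644, 0.718, 0.467 and 0.638 in Media and 0.513, 0.554, 0.547 and 0.520 in Th2, so that 3 of 4 Media arrays lay above every Th2 array (-0.19 ± 0.13, limma adjusted p = 0.425). Without Media 3 the difference was -0.32 and did not pass either, while with array weights it passed as lower (-0.28). Thus 1 gene held arms that rose by about 1.9 log2 units and an arm whose difference was on the other side of 0.

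The miR-378 family, whose best known member lies in Ppargc1b, which codes for a regulator of mitochondrial metabolism, had 4 tested members. Of these 3 rose, beside 8.66% of all tested miRNAs. miR-378a-3p read 0.166, 0.180, 0.117 and 0.168 in Media and 0.353, 0.376, 0.329 and 0.262 in Th2, a rise of 2.10-fold (1.07 ± 0.16, limma adjusted p = 0.000254). miR-378d rose 2.28-fold from 0.0874 ± 0.0148 to 0.200 ± 0.0368 (SD, n = 4), and miR-378b 2.24-fold from 0.0974 ± 0.0241 to 0.214 ± 0.0306. A probe of miR-378a-3p matches miR-378d with 0 mismatches and miR-378b with 1, so its signal cannot be told apart from theirs. The within-array ratio of miR-378b to miR-378d differed by -0.03 ± 0.08 log2 units between the groups (limma adjusted p = 0.940). The other arm, miR-378a-5p, scattered over 0.0196, 0.509, 0.00689 and 0.0875 in Media and 0.195, 0.378, 0.970 and 0.343 in Th2, and did not pass (2.20 ± 0.93, limma adjusted p = 0.159). It was above background on 2 Media arrays and 4 Th2 arrays, and passed without Media 2 (3.05).

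miR-99a, let-7c and miR-125b lie together on chromosome 16, and miR-100 and a second copy of miR-125b on chromosome 9 in the long RNA Mir100hg. All 4 rose. The mature let-7c is also made from a second gene, Mirlet7c-2 on chromosome 15, which lies 709 bases from let-7b, and let-7b-5p did not pass (0.27 ± 0.16, limma adjusted p = 0.343). miR-99a-5p read 2.63, 2.15, 1.39 and 2.00 in Media and 4.20, 4.55, 3.98 and 4.18 in Th2, a 2.12-fold rise (1.08 ± 0.16, limma adjusted p = 0.000177). miR-100-5p went from 0.293, 0.216, 0.194 and 0.323 to 0.584, 0.543, 0.507 and 0.408 (2.02-fold). A probe of either of this pair matches the other with 1 mismatch, so part of the miR-100-5p signal may come from the brighter miR-99a-5p. The within-array ratio of miR-100-5p to miR-99a-5p differed by -0.07 ± 0.15 log2 units between the groups (limma adjusted p = 0.886). Of the 2 probes of miR-100-5p, the longer differed by 1.07 and the shorter, above background on no array, by -0.19. miR-125b-5p rose 1.68-fold from 2.35 ± 0.412 to 3.92 ± 0.475 and let-7c-5p 1.57-fold from 4.65 ± 1.12 to 7.16 ± 0.449 (SD, n = 4). The call of let-7c-5p ended in 5 of 24 refits, in which its log2 difference was as low as 0.20 (limma adjusted p = 0.408, from the authors' deposited table), and that of miR-125b-5p in 2.

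The paralogous cluster on chromosome 17, within Spaca6, holds miR-99b, let-7e and miR-125a, and none of the 3 passed. miR-125a-5p read 0.153, 0.144, 0.0936 and 0.195 in Media and 0.131, 0.142, 0.134 and 0.135 in Th2 (-0.07 ± 0.18, limma adjusted p = 0.911), so that the Th2 arrays lie inside the Media range. let-7e-5p differed by -0.07 ± 0.19 and miR-99b-5p, above background on 2 Media arrays and 0 Th2 arrays, by -0.33 ± 0.23. With array weights, where 64 of 231 miRNAs passed, all 3 passed as lower (miR-99b-5p -0.58, let-7e-5p -0.34 and miR-125a-5p -0.37). miR-99b-5p also passed as lower with quantile normalization (-0.62) and without Media 1, Media 3 and Th2_IL33 2 (-0.68). Since an effect past the threshold in 1 miRNA and not in its relative is no difference between them, the ratio of relatives was fitted within arrays, where the scaling cancels. This was done for every pair of tested relatives, of which 27 (18.5%) passed. The ratio of miR-125b-5p to miR-125a-5p rose by 0.82 ± 0.10 log2 units (limma adjusted p = 2.45e-05) and that of let-7c-5p to let-7e-5p by 0.72 ± 0.10 (5.64e-05). In these 2 pairs the relatives thus changed unequally. Ratios to miR-99b-5p are not given, since it was too dim on every Th2 array.

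Among the other let-7 miRNAs, 0 of 7 passed in either direction and the median difference was 0.14. let-7a-5p came closest, with 5.24, 4.10, 3.03 and 4.94 in Media and 5.67, 5.93, 5.50 and 5.34 in Th2 (0.40 ± 0.16, limma adjusted p = 0.127). let-7i-5p differed by -0.02 ± 0.15. The ratio of let-7c-5p rose against each of them, from 0.25 ± 0.06 against let-7a-5p (limma adjusted p = 0.00935) to 0.68 ± 0.07 against miR-98-5p. Such unequal change was also measured without let-7c-5p. Of 129 pairs of relatives that both did not pass, 13 had a ratio that did, among them let-7a-5p against 6 and let-7b-5p against 3 other members. Probes of let-7a-5p and let-7b-5p match let-7c-5p with 1 mismatch, so part of their signal may be shared.

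**Figure D4:**
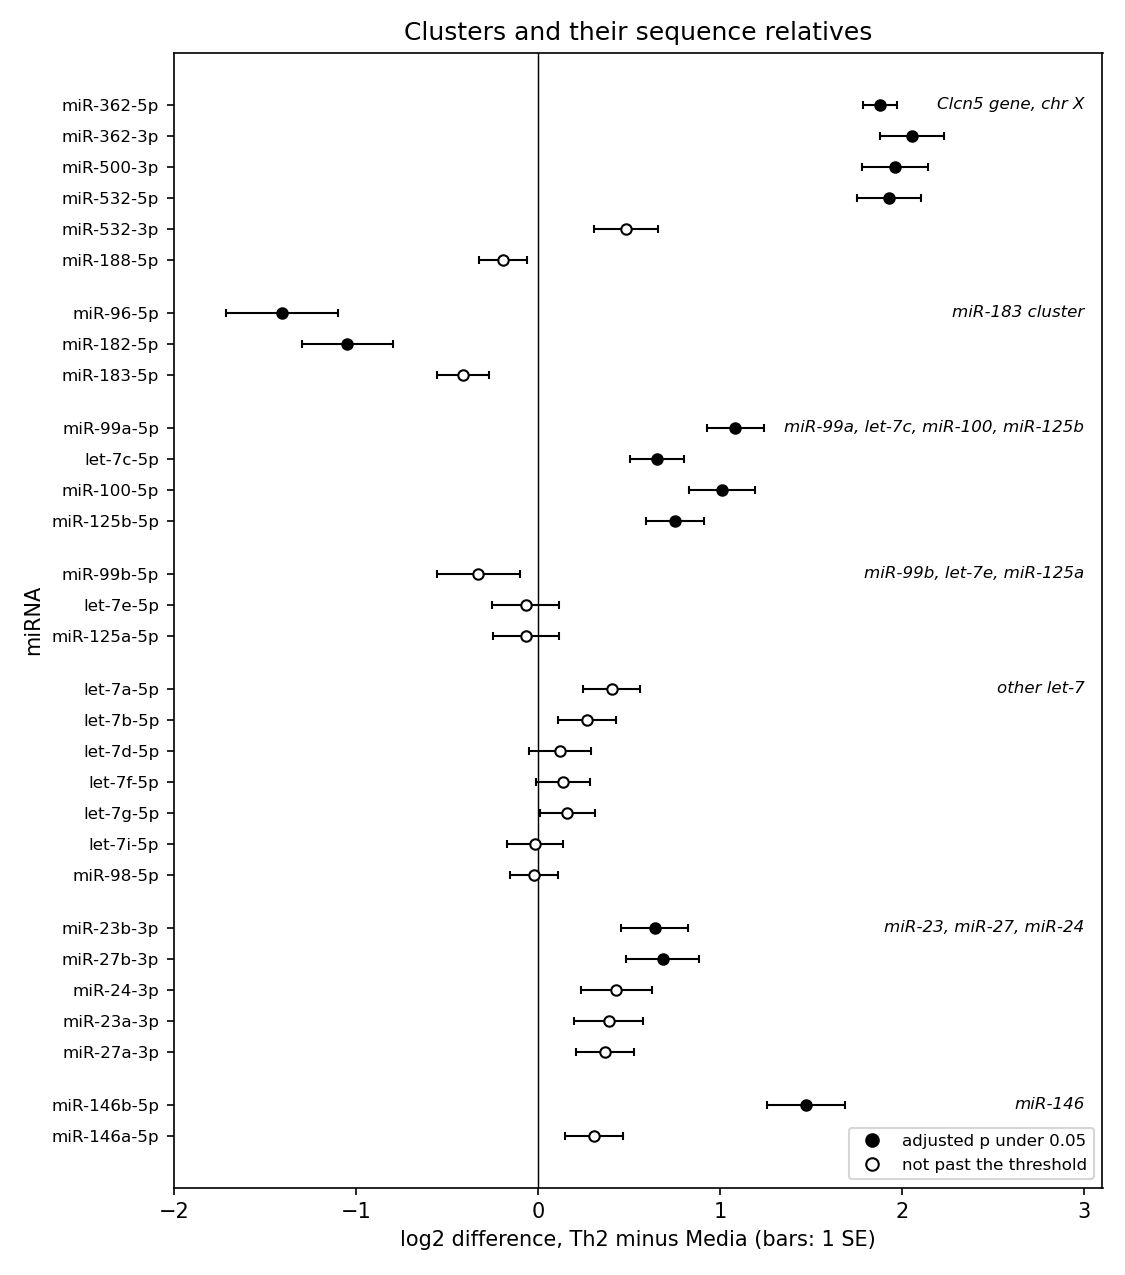
Log2 difference of Th2 minus Media on the horizontal axis with bars of 1 SE, for miRNAs grouped by genomic cluster or family on the vertical axis. Filled points passed an adjusted p of 0.05 and open points did not. The 4 miRNAs of the miR-99a, let-7c, miR-100 and miR-125b group lie between 0.65 and 1.08, and the 3 of the miR-99b cluster lie at or below -0.07.

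Of the miRNAs induced by inflammatory signals, 2 of 6 tested members were higher and 0 lower, with a median of 0.45. The differences of all 6 were above 0. Among all tested miRNAs 8.66% were higher and the median was 0.06. miR-146b-5p, of a family that restrains Toll-like receptor signalling, read 0.0588, 0.0450, 0.0326 and 0.0591 in Media and 0.179, 0.147, 0.126 and 0.0978 in Th2 (1.47 ± 0.22, limma adjusted p = 0.000184), or 2.33-fold with the dim Media arrays at the lowest signal above background. Its relative miR-146a-5p, of the same seed, read 0.254, 0.261, 0.188 and 0.220 in Media and 0.335, 0.309, 0.287 and 0.216 in Th2 and did not pass (0.31 ± 0.16, limma adjusted p = 0.255). The within-array ratio of miR-146b-5p to miR-146a-5p rose by 1.16 ± 0.14 log2 units (limma adjusted p = 2.23e-05). miR-146b-5p was dim in Media, and under the floor of 0.0353 on Media 3, which limits this ratio. miR-21a-5p, an abundant miRNA of activated and dividing cells, read 12.1, 9.52, 6.86 and 16.1 in Media and 18, 16.2, 16 and 24.7 in Th2. Its Th2 arrays are higher within every experiment, yet Media 4 lies above the lowest Th2 array (1.74-fold, 0.80 ± 0.23, limma adjusted p = 0.0386). The call ended without Media 2 (0.0928) or 3 (0.0737), without Th2 1 (0.0866), 2 (0.0528) or 4 (0.0923), and with slide as a block (limma adjusted p = 0.0503), and over 24 refits its adjusted p ran from 0.00397 to 0.243. miR-155-5p, the main NF-kB-induced miRNA of macrophages, was above background on 1 Media array and 0 Th2 arrays (0.03 ± 0.19, limma adjusted p = 0.966).

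miR-223-3p, a miRNA of the myeloid lineage, read 0.610, 0.424, 0.341 and 0.403 in Media and 1.11, 1.19, 1.02 and 0.598 in Th2. The rise was 2.18-fold (1.13 ± 0.24, limma adjusted p = 0.00495). Within slide 1 it was 1.51 log2 units, while between the single arrays of slide 2, Media 1 and Th2 4, the difference was -0.03. miR-342-3p, encoded in the actin regulator gene Evl (chr12:108658680-108658702), read 0.299, 0.244, 0.152 and 0.184 in Media and 0.543, 0.575, 0.569 and 0.326 in Th2, a 2.31-fold rise (1.21 ± 0.23, limma adjusted p = 0.00217). Th2 4 was the lowest Th2 array for both, and slide 2 alone gave 0.13 for miR-342-3p. Of the 22 miRNAs that passed, 21 kept their sign on slide 2. Media 1 and Th2 4 came from different experiments and were also used for the calls. The share of all tested miRNAs that kept their sign there was not counted.

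Smaller increases were those of miR-34a-5p, a target of p53, of miR-22-3p and of 2 members of the chromosome 13 cluster of miR-23b, miR-27b and miR-24. miR-34a-5p went from 1.22, 0.649, 0.638 and 0.973 to 1.47, 1.49, 1.37 and 1.45 (1.72-fold, limma adjusted p = 0.00558), with Th2 arrays in a narrow band above all Media arrays. miR-22-3p rose 1.60-fold from 1.02 ± 0.252 to 1.60 ± 0.137 (SD, n = 4). In 24 refits the call of miR-22-3p ended in 5, with a limma adjusted p of up to 0.209, and that of miR-34a-5p in 3, with up to 0.149. miR-23b-3p read 1.23, 1.29, 0.886 and 1.64 in Media and 1.98, 1.96, 1.84 and 1.91 in Th2 (1.56-fold, limma adjusted p = 0.0375), and miR-27b-3p rose 1.61-fold (limma adjusted p = 0.0415). Leaving out any single array other than Media 4 ended the call of miR-23b-3p, and leaving out Media 2, Media 3 or any Th2 array ended that of miR-27b-3p. The relatives on chromosome 8 had positive differences that did not pass, 0.39 ± 0.19 for miR-23a-3p and 0.37 ± 0.16 for miR-27a-3p, as did miR-24-3p, made from both clusters (0.43 ± 0.20). A probe of miR-23b-3p and one of miR-27b-3p match their chromosome 8 relatives with 1 mismatch. The ratio of miR-23b-3p to miR-23a-3p rose by 0.25 ± 0.05 (limma adjusted p = 0.00165), and that of miR-27b-3p to miR-27a-3p did not pass (0.32 ± 0.12, limma adjusted p = 0.0990).

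Both miRNAs that fell belong to the miR-183 cluster on chromosome 6, miRNAs of sensory and dividing cells that are read together in Mirc35hg. miR-96-5p (chr6:30169506-30169528, minus strand) read 0.115, 0.101, 0.0755 and 0.177 in Media and 0.0344, 0.0353, 0.0329 and 0.0716 in Th2, so each Th2 array lay under all Media arrays (-1.41 ± 0.31, limma adjusted p = 0.00573). It was above background on 3 Media arrays and 1 Th2 array, and 1.95-fold lower with the dim arrays at the lowest signal above background. miR-182-5p read 0.0638, 0.0838, 0.0484 and 0.131 in Media and was above background on 4 of 4 of these arrays and on 0 of 4 Th2 arrays, at least 1.52-fold lower (-1.05 ± 0.25, limma adjusted p = 0.00969). The third member, miR-183-5p, was above background on 1 Media array and 0 Th2 arrays and did not pass (-0.41 ± 0.14, limma adjusted p = 0.0964). On the Th2 arrays other than Th2 4, miR-182-5p (0.00359 to 0.00961) and miR-183-5p (0.0113 to 0.0149) lay under the floor of 0.0353. Their log2 differences are thus measured from the floor, and the SE and p leave out part of the spread. Before flooring, the mean signal of miR-183-5p was 0.0461 in Media and 0.0186 in Th2. Without Media 3 it passed (-0.55), and also without Media 1, Media 3 and Th2_IL33 2 (-0.60). With all arrays kept it passed with quantile normalization (-0.49), log2 of signal plus floor (-0.60), the brightest probe (-0.50) and array weights (-0.67). These are low signals, and with normexp background correction neither miR-96-5p (-0.29, limma adjusted p = 0.0502) nor miR-182-5p (-0.24, 0.110) passed. Over all refits their adjusted p ran from 2.16e-05 to 0.0670 and from 1.36e-05 to 0.123.

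In the list of the miR-17 to miR-92a cluster and its paralogs, which proliferating cells express, 0 of 11 tested members passed, with a median of -0.23. At an unadjusted limma p under 0.05 there were 3 of the 11, against 56 of all 231. miR-92a-3p read 1.70, 1.61, 1.15 and 1.33 in Media and 1.04, 1.22, 1.03 and 1.05 in Th2 (-0.40 ± 0.14, limma adjusted p = 0.0842). Media 3 was the lowest Media array for it, and without that array 5 of the 11 members fell, among them miR-92a-3p (-0.51), miR-18a-5p (-0.51) and miR-20a-5p (-0.48). With all arrays kept, members also passed as lower in other refits, 3 in the authors' deposited table, 3 with the brightest probe, 2 with quantile normalization, 1 with normexp and 5 with array weights, and 0 as higher. Of 32 tested miRNAs of the Sfmbt2 name family, 0 passed, 6 had an unadjusted limma p under 0.05, and the median was -0.13, a value that was 0.32 without Media 3 and -0.56 without Media 1. With experiment number as a block miR-466f-5p and miR-466j of this family passed as lower, which raised the decreases from 2 to 4 while the 22 calls were kept. With quantile normalization 8 of the 32 passed as lower and with array weights 10, and under no refit did a member pass as higher.

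The largest difference of all was not a call. miR-376c-3p, of an imprinted miRNA cluster on chromosome 12, read 0.0690, 5.35, 0.00283 and 1.80 in Media against 3.74, 4.87, 4.45 and 3.92 in Th2 (3.43 ± 1.20, limma adjusted p = 0.0964). The Th2 arrays agree closely while the Media arrays run from the floor to above every Th2 array. It passed without Media 2 (4.69) and without Media 4 (4.17).

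Few partner arms could be followed. Of 19 partner arms on the array that did not pass, 3 were tested and the other 16 were above background on none of the 8 arrays. The 3 had differences above 0, as did the arms that passed: miR-532-3p (0.48 ± 0.18), miR-378a-5p (2.20 ± 0.93) and miR-21a-3p (0.58 ± 0.24). The last was above background on 2 Media arrays and 1 Th2 array, and passed without Media 4 (0.80). The 2 probes or more behind each miRNA that passed spread by a median of 0.08 log2 units, and in 19 of 22 all probes differed in 1 direction. The exceptions, miR-100-5p, miR-182-5p and miR-362-5p, each had shorter probes that were above background on no array. So did miR-378b and miR-146b-5p, and for miR-146b-5p the shorter probe differed by 0.08 and the longer by 1.40.

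The comparison could be repeated on the 8 arrays that had received IL-33, which share the experiments and the variance estimate with these. All 22 miRNAs had the same sign there and 20 passed, out of 22 of 231 (9.52%) that passed in that comparison. miR-511-3p differed by 2.81 log2 units, miR-500-3p by 1.82, miR-99a-5p by 1.14 and miR-378a-3p by 1.19. miR-146b-5p differed by 0.95, and miR-21a-5p (0.60, limma adjusted p = 0.139) and miR-27b-3p (0.62, 0.0717) did not pass. The 2 others that passed there were miR-183-5p (-0.55, limma adjusted p = 0.0174) and miR-155-5p (0.72, 0.0246). No miRNA of 231 passed the test of the difference between both comparisons (limma, smallest adjusted p = 0.995, with 5 at an unadjusted p under 0.05).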

How the data were processed

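Total RNA was labelled with Cy3 and hybridised to single-colour Agilent mouse miRNA arrays. Per the file headers, Agilent Feature Extraction 10.7.3.1 made the deposited intensity of each spot, background-subtracted and not normalized between arrays, and the build named there is mm9. Per the submitters' processing notes the authors' own table was made with Partek 6.6 and RMA. It was used only as an alternative.

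Outlier and control spots were left out, spots were averaged per probe and probes summed per miRNA. Signals were scaled to the 75th percentile and floored at 0.0353, the 1st percentile of detected signals, before log2. limma 3.58.1 (R 4.3.3, with version 1.17.8 of data.table) fitted a mean for each of 4 groups over the 16 arrays, leaving 12 residual degrees of freedom, and p-values were adjusted by Benjamini-Hochberg over 231 miRNAs. Folds written "at least" or "with the dim arrays at the lowest signal" replace arrays not above background by the lowest signal well above it. The number of arrays limits the precision, and no spot was saturated.

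Named were all miRNAs past the threshold, the next by p, relatives with 1 seed or sequence, partner arms, cluster neighbours within 50000 bases and members of 10 lists. Members, lists and rules were chosen with earlier results of these data known, and the ratios of relatives were added after them. miR-23b-3p, miR-378a-3p and miR-532-5p have no sequence here. Sequences, strands and host genes are RefSeq's for GRCm38.p6.

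The labels put the arrays of 1 number in 1 experiment. Deviations of same-numbered Media and Th2 arrays from their group means correlated with r of 0.323, 0.105, 0.104 and -0.0444 over the 231 miRNAs. The fit was also run on simulated arrays with planted differences, whose means and spreads were taken from these data.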

Additional observations from a re-analysis of the deposited data

Results flagged for a closer look

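Among 34 miRNAs examined in both groups (68 groups of 4 arrays), 9 groups had 1 array far from the other 3. Far means that the gap to the nearest array, over the range of the group in log2, was above the 95% critical value of Dixon's test. At that level chance alone is set to give about 1 in 20 groups. Values were floored at 0.0353 beforehand, and the rate does not hold for groups with arrays at the floor. Th2 4 was that array in 5 of the 9. It was higher than the others for miR-96-5p (0.0716, others 0.0329 to 0.0353), miR-182-5p (0.0424, others 0.00359 to 0.00961) and miR-183-5p (0.0359, others 0.0113 to 0.0149), and lower for miR-342-3p (0.326, others 0.543 to 0.575) and miR-181a-5p (0.0357, others 0.0586 to 0.0644). All 5 point towards the Media values. For miR-96-5p, miR-182-5p and miR-183-5p, however, the other Th2 arrays lay at or under the floor. Where the others share the floor value, any array above it is flagged, however small the gap. The other arrays apart were Media 3 for miR-378d (0.0654, others 0.0921 to 0.0972) and Th2 2 for miR-92a-3p (1.22, others 1.03 to 1.05). Near the floor there were also Media 4 for miR-155-5p (0.0581, others 0.0180 to 0.0364) and Media 2 for miR-181a-5p (0.0440, others under the floor).

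Of the 1016 miRNAs not tested, 37 were above background on at least 1 of the 8 arrays, 34 of them on Media 3 alone. The other 3 were above background on 1 Th2 array and no Media array, miR-6339 on Th2 3 (0.610, Media at most 0.144), miR-215-5p on Th2 2 (0.0999, Media at most 0.0937) and miR-669a-5p on Th2 3 (0.0855, Media at most 0.0603).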

How the results depend on the processing

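In 24 refits, 12 of the 22 miRNAs passed in every refit that tested them, and all 22 kept their sign. The 12 were miR-511-3p, the 4 Clcn5 miRNAs, miR-378a-3p, miR-378b, miR-378d, miR-99a-5p, miR-100-5p, miR-146b-5p and miR-342-3p. The calls lost most often were miR-27b-3p, miR-21a-5p and miR-23b-3p, which passed in 9, 10 and 10 of 24. Of uncalled values only the call was compared. The total moved to 40 with quantile normalization and 64 with array weights (31 higher, 33 lower). The 20 increases moved to 12 with the percentile over all miRNAs. The 2 decreases moved to 21 with quantile normalization, 9 in the authors' deposited table and with the brightest probe, 5 without Media 1, Media 3 and Th2_IL33 2, 4 with the replicate block, and 1 with normexp, with 8 arrays only and within slide 1. They were 0 among miRNAs detected on all 8 arrays, where neither was tested, and 0 with no filter and log2 of signal plus floor, an alternative chosen after seeing the data since 69.4% of all miRNAs sit at the floor on all 16 arrays and the planned fit without a filter was not run. Leaving out 1 array gave 19 to 30 calls, 17 to 25 increases and 2 to 13 decreases, the 13 without Media 3. The replicate block, which uses the pairing by experiment, gave 24 calls, and changed no other call. Between the single arrays of slide 2 miR-223-3p reversed (-0.030). The median of all tested shifted by -0.17 with quantile normalization, -0.13 in the authors' table and -0.10 with the brightest probe. The causes were not tested. Signals near background limit the 2 decreases, miR-155-5p and miR-532-3p.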
